A study of Mus musculus with 24 samples.

Results

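RNA of 10 genes of macrophage fusion and osteoclast-like function was followed in mouse macrophages grown from bone marrow (BMDMs) and kept with lymphocytes: Tnfrsf11a, Nfatc1, Oscar, Dcstamp, Ocstamp, Tm4sf19, Itgb3, Spp1, Atp6v0d2 and Acp5. They were taken by name, as the rows of the raw count table whose Ensembl identifier carries that symbol, and all 10 were found among the 55487 rows. The 24 libraries were poly(A) RNA from such co-cultures, 3 in each of 8 groups. In all 8 groups the lymphocytes came from the spleens of mice that carried tumours of B16-F10-OVA, melanoma cells of the mouse that make ovalbumin, and the macrophages were either WT or Tmem175-/- (knockout). For each genotype there was a group without added antigen (WT_none, KO_none), a group given antigen of B16-F10-OVA tumour cells (WT_Ag, KO_Ag), and groups given that antigen with IL-1β (WT_Ag_IL1b, KO_Ag_IL1b) or IL-18 (WT_Ag_IL18, KO_Ag_IL18), each cytokine at 500 pg/ml. The labels state neither the genotype of the lymphocytes nor whether the 3 libraries of a group were separate mice, macrophage preparations or wells, so p-values measure only the spread between these libraries.

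Osteoclasts and multinucleated giant cells form when cells of the macrophage lineage fuse. The cytokine RANKL binds RANK, the product of Tnfrsf11a, and this signal, together with costimulation through immunoreceptors such as OSCAR, drives the transcription factor NFATc1. NFATc1 with PU.1, AP-1 and MITF then switches on fusion proteins (DC-STAMP, OC-STAMP, the V-ATPase subunit d2 encoded by Atp6v0d2) and products of the mature osteoclast such as TRAP, the tartrate-resistant acid phosphatase encoded by Acp5. Several of these genes are also expressed by macrophages that never fuse, Spp1 (osteopontin) and Acp5 among them.

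The proximal promoters of Spp1 and Acp5 are shown because these genes moved in opposite directions with antigen. Each line gives the 250 bases before a RefSeq transcription start on GRCm38.p6, read 5' to 3' on the gene's strand, with motif matches in capitals. The Spp1 windows lie on the plus strand of chromosome 5 and the Acp5 windows on the minus strand of chromosome 9.
Spp1, chr5:104434861-104435110: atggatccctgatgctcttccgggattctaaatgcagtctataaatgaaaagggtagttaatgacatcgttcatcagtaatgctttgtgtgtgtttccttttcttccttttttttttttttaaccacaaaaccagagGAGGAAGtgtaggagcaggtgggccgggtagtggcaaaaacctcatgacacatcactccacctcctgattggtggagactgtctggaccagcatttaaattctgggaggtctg
Spp1, chr5:104435942-104436191: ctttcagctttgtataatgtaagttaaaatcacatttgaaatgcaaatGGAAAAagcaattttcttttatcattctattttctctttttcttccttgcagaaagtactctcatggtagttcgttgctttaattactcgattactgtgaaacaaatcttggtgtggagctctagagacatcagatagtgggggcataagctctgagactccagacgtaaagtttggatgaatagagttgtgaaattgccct
Acp5, chr9:22135747-22135996: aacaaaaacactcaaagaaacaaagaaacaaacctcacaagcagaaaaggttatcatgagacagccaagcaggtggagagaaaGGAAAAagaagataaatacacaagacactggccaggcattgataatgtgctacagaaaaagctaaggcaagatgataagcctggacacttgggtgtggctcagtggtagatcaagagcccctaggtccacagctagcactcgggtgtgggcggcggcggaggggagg
Acp5, chr9:22130599-22130848: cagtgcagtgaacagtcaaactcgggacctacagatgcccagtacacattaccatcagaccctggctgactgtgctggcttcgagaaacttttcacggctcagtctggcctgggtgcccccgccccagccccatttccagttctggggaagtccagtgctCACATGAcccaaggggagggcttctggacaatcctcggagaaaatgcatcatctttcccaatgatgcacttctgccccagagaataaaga
The motifs searched, on both strands, were AP-1 (TGANTCA), the NFAT core (GGAAAA), PU.1 (GAGGAAG), an E-box (CACGTG) and the MITF box (TCATGTG). The first Spp1 window held a PU.1 match whose first base was at position -113 from the start, and the second held an NFAT core at position -202. The Acp5 window at 22135747 held an NFAT core at position -167, and the one at 22130599 held the MITF box at position -90, read on the opposite strand. Of the other windows, the remaining one of Acp5 and those of Tnfrsf11a and Tm4sf19 held no match, whereas that of Oscar held an NFAT core at positions -250 and -83 and a PU.1 match at position -238. Of the 32851 windows of this length in the table, 20.4% held the NFAT core, 10.6% the PU.1 letters, 6.75% the AP-1 letters, 6.02% the E-box and 3.25% the MITF box. Dcstamp, Ocstamp, Atp6v0d2 and Itgb3 have no entry in the table used here, and no window is shown for Nfatc1.

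The libraries held 17744540 to 24898552 counts, and 14099 genes with 99.9% of the counts entered the test. Of the 10 genes, 9 were tested and Oscar, with 25 counts over all 24 libraries, was not. Levels are in CPM, the count scaled to library size with edgeR's TMM factors. A difference is a log2 fold change with an SE, which is the absolute change divided by the square root of the test's F. For large changes that rest on few counts, as in Dcstamp and Ocstamp with antigen, this SE is smaller than counting error. The adjusted p is that of edgeR's quasi-likelihood test after Benjamini-Hochberg adjustment over all tested genes. A difference is called when that p is under 0.05. Tmem175 RNA was lower but not lost in knockout cultures, at 14.6 ± 0.463 CPM against 25.3 ± 0.871 without antigen (mean ± SD, n = 3). In 11 of the 12 knockout samples the field for the genotype names other genes, numbered in sequence, and the grouping rests on the titles and the study design. Replicates 1 and 2 were the most unlike pair in every group of either genotype. Their chi-square per degree of freedom was 9.08 to 16.7 in the 4 knockout groups and 3.41 to 5.26 in the WT groups. All WT pairs ran from 1.46 to 5.26. Results that change without the 4 knockout libraries numbered 2 are given with that value. The comparisons share groups of libraries and are not independent of each other. The share of all tested genes whose groups of 3 libraries did not overlap was not counted. A lack of overlap is therefore given only as a description of the values.

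Without antigen the co-cultures of either genotype held high Spp1 and Atp6v0d2 RNA and clear Dcstamp RNA, whereas Calcr and Oscar were at or near 0 counts. Per kb of transcript, the only scale on which genes are compared here, the WT_none means ran from Spp1 at 1163 CPM per kb and Atp6v0d2 at 491 to Dcstamp at 22.6, Tm4sf19 at 18.3, Tnfrsf11a at 17.9, Acp5 at 17.8, Itgb3 at 14, Nfatc1 at 10.1 and Ocstamp at 0.612. The library values of Tm4sf19, Tnfrsf11a and Acp5 overlapped one another. With antigen the order changed, and in WT_Ag Acp5 led at 148 CPM per kb, followed by Spp1 at 102 and Atp6v0d2 at 29.9, while Dcstamp stood at 0.169. Calcr, the calcitonin receptor of mature osteoclasts, had 0 counts in WT_none and KO_none, and a count of 0 over WT_none allows up to 0.0489 CPM. Car2, the osteoclast's carbonic anhydrase, stood at 1.53 ± 0.203 CPM in WT_none, and Ctsk, its collagen-degrading cathepsin, at 38 ± 3.86. The gene set is therefore described by its members and not as osteoclasts.

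**Figure D1:**
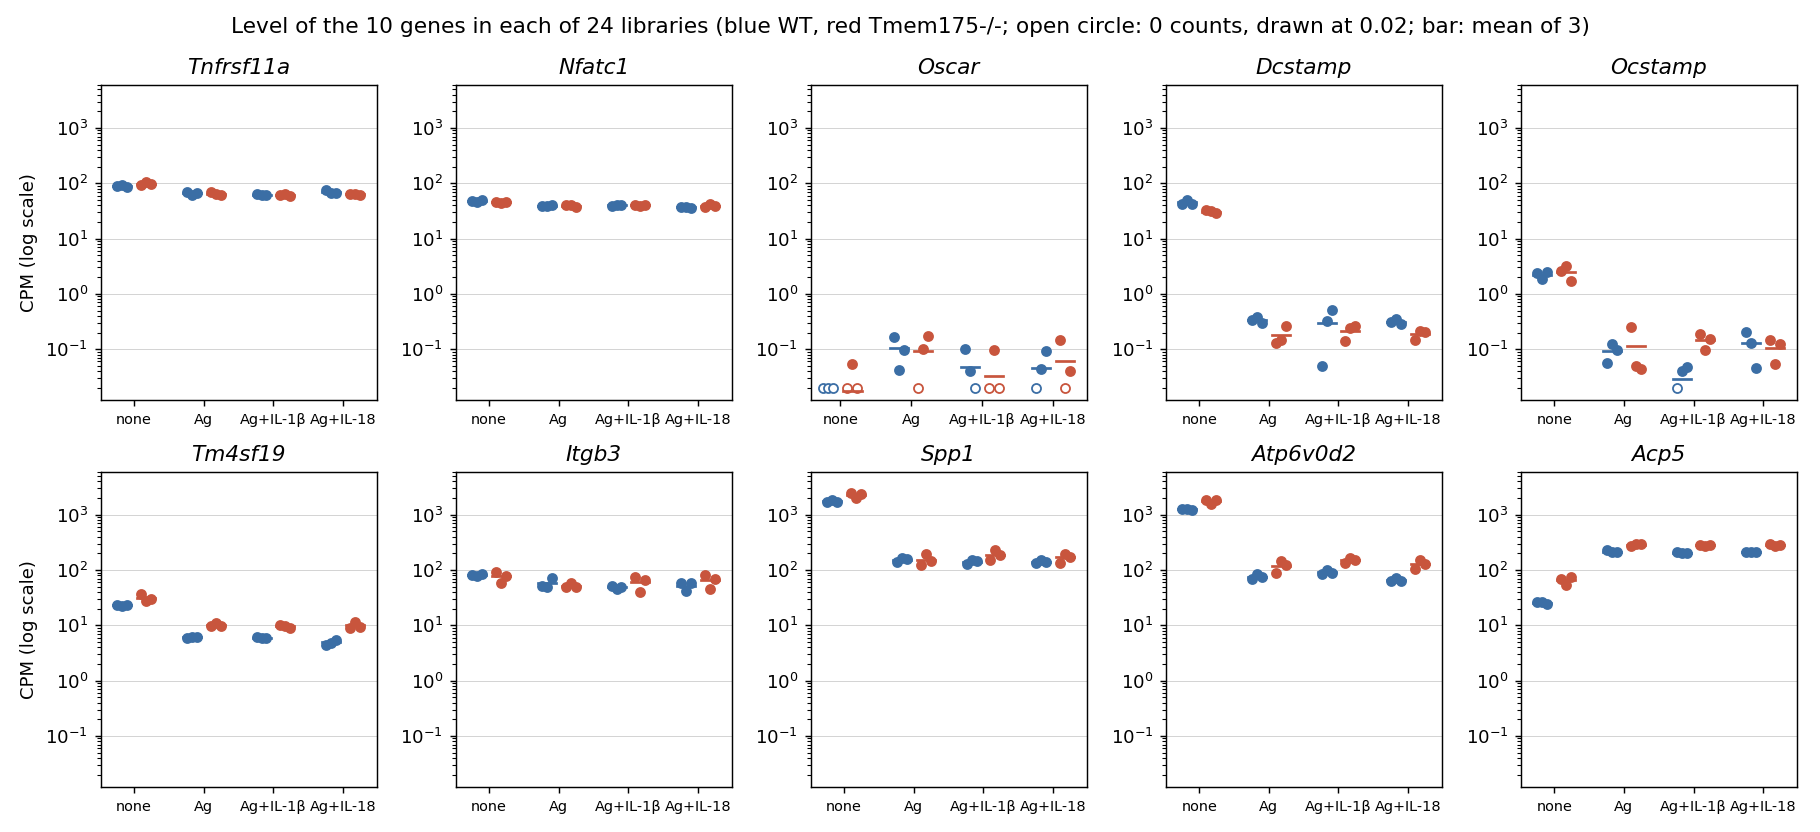
Level of each of the 10 genes in all 24 libraries, as CPM on a log axis, by condition (none, antigen, antigen with IL-1β, antigen with IL-18); blue points are WT and red points Tmem175-/- libraries, bars are means of 3, and open circles are libraries with 0 counts. Dcstamp drops from 28.7 to 50.3 CPM without antigen to at most 0.521 CPM with it, Acp5 moves the other way, and Nfatc1 and Tnfrsf11a stay between 35.5 and 104 CPM throughout.

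More members were called between cultures with and without tumour antigen than between genotypes. The same held for all tested genes, of which only 13.8% to 20.2% were called between genotypes. In WT cultures 7 of the 9 tested genes fell and Acp5 rose, and in knockout cultures 8 fell and Acp5 rose. The background of such calls was high, since 68% of all tested genes were called in WT and 68.3% in knockout cultures, of which 33.5% and 33.8% were higher and 34.5% and 34.6% lower. The median log2 fold change of the 9 genes was -1.91 in WT and -1.62 in knockout, against 0.00 and 0.01 for all tested genes. The size of the falls differed between members. Dcstamp, Ocstamp, Atp6v0d2, Spp1 and Tm4sf19 were among the 416 lowest of 14099 genes in WT and the 581 lowest in knockout. Falls as large as those of Itgb3, Tnfrsf11a and Nfatc1 were common, at ranks 3075, 3333 and 4172 from the lowest in WT and 2574, 2441 and 5025 in knockout. In these bulk libraries fewer cells of a type and less RNA per cell cannot be told apart.

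The receptor and the transcription factor at the head of the pathway showed small falls. Tnfrsf11a, which encodes RANK, stood at 88.9, 94.7 and 86.1 CPM in WT_none and 69.5, 62.1 and 65.9 in WT_Ag, and at 92.8, 104 and 97.2 in KO_none and 69.2, 64 and 61 in KO_Ag. No antigen library reached a library without antigen, and the log2 fold changes were -0.45 ± 0.0536 in WT and -0.60 ± 0.0532 in knockout (adjusted p 1.75e-08 and 5.95e-11). Nfatc1 moved from 48.7, 46.3 and 50.5 CPM in WT_none to 38.4, 38.2 and 39.9 in WT_Ag, and from 46.4, 44.5 and 45.9 in KO_none to 40.7, 40.9 and 36.9 in KO_Ag. These groups did not overlap either, and the changes were small, -0.32 ± 0.0474 and -0.21 ± 0.0472 (adjusted p 8.19e-07 and 0.000319). Oscar, the costimulatory receptor that pairs with the Fc receptor gamma chain, had 0 counts in WT_none, 6 in WT_Ag, 1 in KO_none and 6 in KO_Ag, and no fold is given.

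Dcstamp, whose product is required for fusion of osteoclasts and of foreign-body giant cells, showed the largest fall of the set. Its level was 42.4, 50.3 and 43 CPM in WT_none and 0.339, 0.377 and 0.296 in WT_Ag, and 32.2, 30.9 and 28.7 in KO_none and 0.128, 0.149 and 0.265 in KO_Ag. The log2 fold change was -7.03 ± 0.164 in WT (adjusted p 5.39e-24) and -7.35 ± 0.187 in knockout (adjusted p 2.74e-23), the 8th lowest of 14099 genes in each genotype. The values with antigen rest on 21 and 12 counts over 3 libraries, and the ratios of summed counts per depth were 133 (95% counting interval 87.1 to 216) and 169 (96.4 to 327). Ocstamp, its partner in fusion, was scarce before antigen, at 2.37, 1.88 and 2.46 CPM in WT_none and 2.55, 3.14 and 1.71 in KO_none. It went from 137 counts to 6 in WT, a ratio of 23 (10.3 to 63.9), and from 149 to 8 in knockout, a ratio of 20.1 (9.95 to 47.5), and was called lower in each (log2 fold change -4.45 ± 0.419 and -4.28 ± 0.387, adjusted p 1.88e-10 and 8.23e-11). The intervals cover counting error only, and for Dcstamp and Ocstamp they are wider than the SE of the log2 fold change would give. Tm4sf19, a membrane protein linked to osteoclast multinucleation, fell less. It stood at 23.7, 22.4 and 22.9 CPM in WT_none and 5.82, 6.2 and 6.26 in WT_Ag, and at 36.7, 27.2 and 30.4 in KO_none and 9.86, 10.9 and 9.92 in KO_Ag, changes of -1.91 ± 0.101 and -1.62 ± 0.0894 (adjusted p 5.57e-16 and 1.47e-15).

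Itgb3, which encodes the beta3 chain of the vitronectin receptor that anchors osteoclasts to bone, gave the least certain change. It stood at 79.7, 77.8 and 85.6 CPM in WT_none and 51, 50 and 71.1 in WT_Ag, a difference of -0.50 ± 0.233 that was not called (adjusted p 0.0684) but was called without WT_Ag replicate 3 (adjusted p 0.0313) and with a replicate block (0.0244). In knockout cultures the values were 91.8, 59.2 and 79.2 without and 49.5, 57.9 and 48.5 with antigen. That difference, -0.57 ± 0.234, was called (adjusted p 0.0409). The call was lost without the filter on low counts (0.0801) and without KO_Ag replicate 1 (0.112), 2 (0.0505) or 3 (0.105). Leaving out KO_none replicate 1 (0.173) or 3 (0.093) lost it too. It was kept without the 4 knockout libraries numbered 2 (-0.80, adjusted p 0.00151). Spp1, a secreted ligand of this integrin, fell strongly: it stood at 1717, 1845 and 1697 CPM in WT_none and 140, 164 and 158 in WT_Ag, and at 2514, 2024 and 2405 in KO_none and 121, 191 and 143 in KO_Ag. The groups were an order of magnitude apart, with log2 fold changes of -3.51 ± 0.185 (adjusted p 1.3e-11) and -3.93 ± 0.188 (adjusted p 3.18e-12).

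Atp6v0d2, the d2 subunit of the proton pump that acidifies lysosomes and, in osteoclasts, the resorption space, stood at 1253, 1254 and 1234 CPM in WT_none and 67.5, 85 and 75.2 in WT_Ag, a log2 fold change of -4.04 ± 0.169 (adjusted p 4.53e-13). In knockout cultures it stood at 1823, 1577 and 1825 CPM without and 87.3, 144 and 124 with antigen, a change of -3.88 ± 0.166 (adjusted p 5.96e-13). Its paralog Atp6v0d1, the ubiquitous d1 subunit, changed by -0.24 ± 0.04 and -0.17 ± 0.0398 (adjusted p 5.8e-06 and 0.000553). Per kb of transcript, d2 therefore made up 82.4% ± 0.357 of d1 plus d2 RNA in WT_none and 25.1% ± 1.28 in WT_Ag (SD, n = 3), and 86.5% ± 0.31 and 32.6% ± 4.91 in KO_none and KO_Ag.

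Acp5, which encodes TRAP, the enzyme used to stain osteoclasts, rose. It stood at 26.7, 26 and 24.7 CPM in WT_none and 227, 208 and 209 in WT_Ag, 8.31-fold higher (3.05 ± 0.0821 on the log2 scale, adjusted p 4.09e-18). In knockout cultures it went from 70, 53.7 and 73.5 to 268, 296 and 290 CPM, 4.32-fold higher (2.11 ± 0.075, adjusted p 4.55e-16). Every antigen library was above every library without it. The difference between these responses was itself called, at -0.94 ± 0.109 on the log2 scale (adjusted p 1.13e-05), and without the 4 knockout libraries numbered 2 it was -1.10 (adjusted p 5.36e-12). The background for this test was 8.39% of genes, 3.79% with a higher and 4.6% with a lower response. Acp5 was the 1 member called; Tm4sf19 at 0.29 ± 0.138 was not (adjusted p 0.223) but was without KO_none replicate 1 (0.41, adjusted p 0.041). Spp1 at -0.42 ± 0.24 was not called either (adjusted p 0.344), but was without the 4 knockout libraries numbered 2 (-0.71, adjusted p 0.0197).

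**Figure D2:**
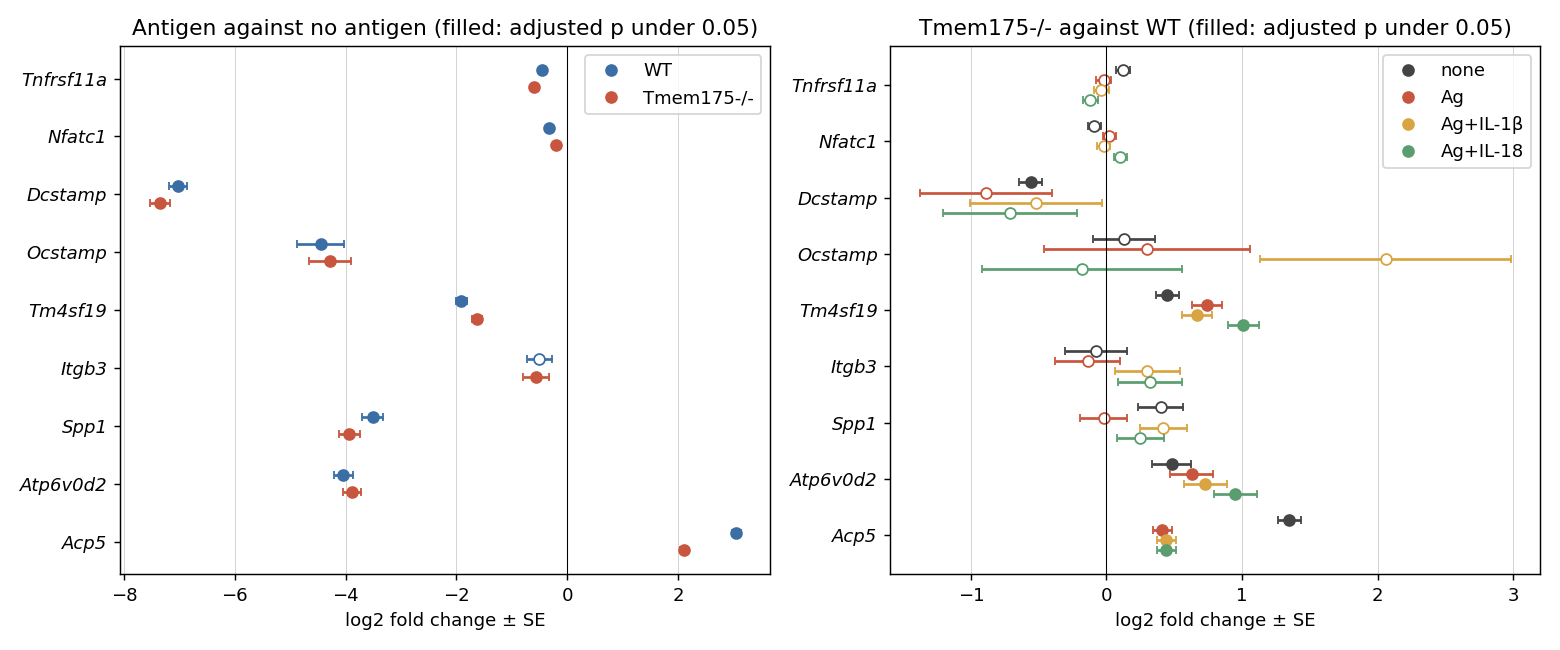
Log2 fold change ± SE of the 9 tested genes, antigen against no antigen in each genotype (left) and Tmem175-/- against WT in each condition (right); filled points have an adjusted p under 0.05. On the left 8 genes lie below 0 and Acp5 lies at 3.05 in WT and 2.11 in Tmem175-/- cultures. The left bars of Dcstamp and Ocstamp are narrower than their counting error. On the right Acp5, Tm4sf19 and Atp6v0d2 are filled above 0 in all 4 conditions and Dcstamp is filled below 0 without antigen.

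Markers of several cell types moved with antigen as well. The summed level of 7 macrophage markers was 5906 to 6081 CPM in WT_none and 9576 to 9813 in WT_Ag, and 5653 to 5981 in KO_none and 8731 to 9553 in KO_Ag; 4 of the 7 rose and 2 fell in each genotype. That of 7 neutrophil markers was 1208 to 1352 CPM in WT_none and 378 to 463 in WT_Ag, and 1254 to 1344 in KO_none and 421 to 471 in KO_Ag; 6 fell in WT, and 5 fell and 1 rose in knockout. That of 8 T cell markers was 139 to 160 CPM in WT_none and 21.3 to 23.5 in WT_Ag, and 110 to 119 in KO_none and 21.3 to 25.2 in KO_Ag, although only 1 of the 8 fell in each genotype, with 1 risen in WT and 5 in knockout. The sum of 8 fibroblast and stromal markers was 32.5 to 115 CPM in WT_none and 143 to 222 in WT_Ag, and 15.8 to 33.9 in KO_none and 48.1 to 57.5 in KO_Ag; 6 rose in WT and 4 in knockout, and 0 fell. The sum of 7 megakaryocyte and platelet markers, cells that also express Itgb3, was 147 to 167 CPM in WT_none and 347 to 406 in WT_Ag, and 134 to 158 in KO_none and 318 to 540 in KO_Ag, with Gp1bb at 0 throughout; of the 6 tested, 1 rose and 2 fell in WT, and 1 rose and 1 fell in knockout. The sum of 6 B cell markers was 10.8 to 11.5 CPM in WT_none and 16.8 to 18.6 in WT_Ag, and 7.93 to 9.74 in KO_none and 15.2 to 16.1 in KO_Ag, and 3 and 4 of the 5 tested rose. The sum of 6 osteoblast markers was at most 12.5 CPM, with Bglap (osteocalcin) at 0 in all 8 groups. The part of these cell types in the changes of the members was not tested.

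Other genes of the pathway were called in either direction, and their counts stand against 33.5% higher and 34.5% lower over all tested genes in WT and 33.8% and 34.6% in knockout cultures. In the list of 29 RANK and costimulatory signalling genes, 28 were tested, of which 15 rose and 8 fell with antigen in WT and 13 rose and 8 fell in knockout cultures (median log2 fold change 0.11 and 0.23). Trem2, an immunoreceptor of macrophages and osteoclast precursors, fell (log2 fold change -2.78 in WT and -2.75 in knockout), as did its adaptor Tyrobp or DAP12 (-0.55 and -0.69) and Mitf (-1.08 and -1.46). Fos, the AP-1 subunit required for osteoclast formation, rose by 0.46 and 0.50, Fosl2 by 1.68 and 1.52, and Traf6, the adaptor of RANK, by 0.47 and 0.41. Csf1r, the M-CSF receptor, changed by -0.17 and -0.21, and the WT call was lost without WT_Ag replicate 1 (adjusted p 0.0519). Tnfsf11, the gene of RANKL, stood at 0.31 ± 0.159 CPM in WT_none and 0.464 ± 0.127 in WT_Ag, and was not called.

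Of the 19 tested genes of fusion and cell contact, 4 rose and 10 fell in WT cultures and 5 rose and 10 fell in knockout cultures (medians -0.42 and -0.36). The tetraspanin Cd9, which restrains macrophage fusion, fell (log2 fold change -2.11 and -2.44), as did Gpnmb (-1.30 and -1.54) and the hyaluronan receptor Cd44 (-0.50 and -0.40). The chemokine Ccl2 rose by 1.09 and 2.57. Of 15 tested genes of the resorption machinery 4 rose and 8 fell in WT, and 4 rose and 11 fell in knockout (medians -0.39 and -0.82). Ctsk fell (-1.40 and -1.31), and so did Tcirg1, the a3 subunit that osteoclasts use in the proton pump (-0.93 and -1.01). The matrix metalloproteinases Mmp9 and Mmp14 rose, by 1.70 and 2.07 and by 3.16 and 2.77. Of 17 tested V-ATPase genes other than Atp6v0d2, which include Tcirg1 again, 2 rose and 12 fell in WT and 2 rose and 13 fell in knockout (medians -0.23 and -0.25), with Atp6v0a1 the lowest at -3.42 and -3.68.

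In a list of 14 repressors connected with osteoclast formation, 6 rose and 6 fell in WT, and 7 rose and 6 fell in knockout cultures. Irf8 rose by 0.33 and 0.40 and Bcl6 by 0.74 and 0.34. The list mixes roles, since Prdm1 (-0.42 and -0.60) represses several genes that restrain osteoclast formation. Of the 14 tested partners of integrin beta3 and osteopontin, 5 rose and 6 fell in WT and 5 rose and 7 fell in knockout. Itgav, the alpha chain that pairs with beta3, changed by 0.25 in WT (adjusted p 8.15e-05) and 0.06 in knockout (adjusted p 0.284; 0.16, adjusted p 0.00295, without KO_none replicate 2). Thbs1 (thrombospondin) rose by 3.72 and 3.68, and Mfge8, another integrin ligand, fell (-2.12 and -2.62).

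**Figure D3:**
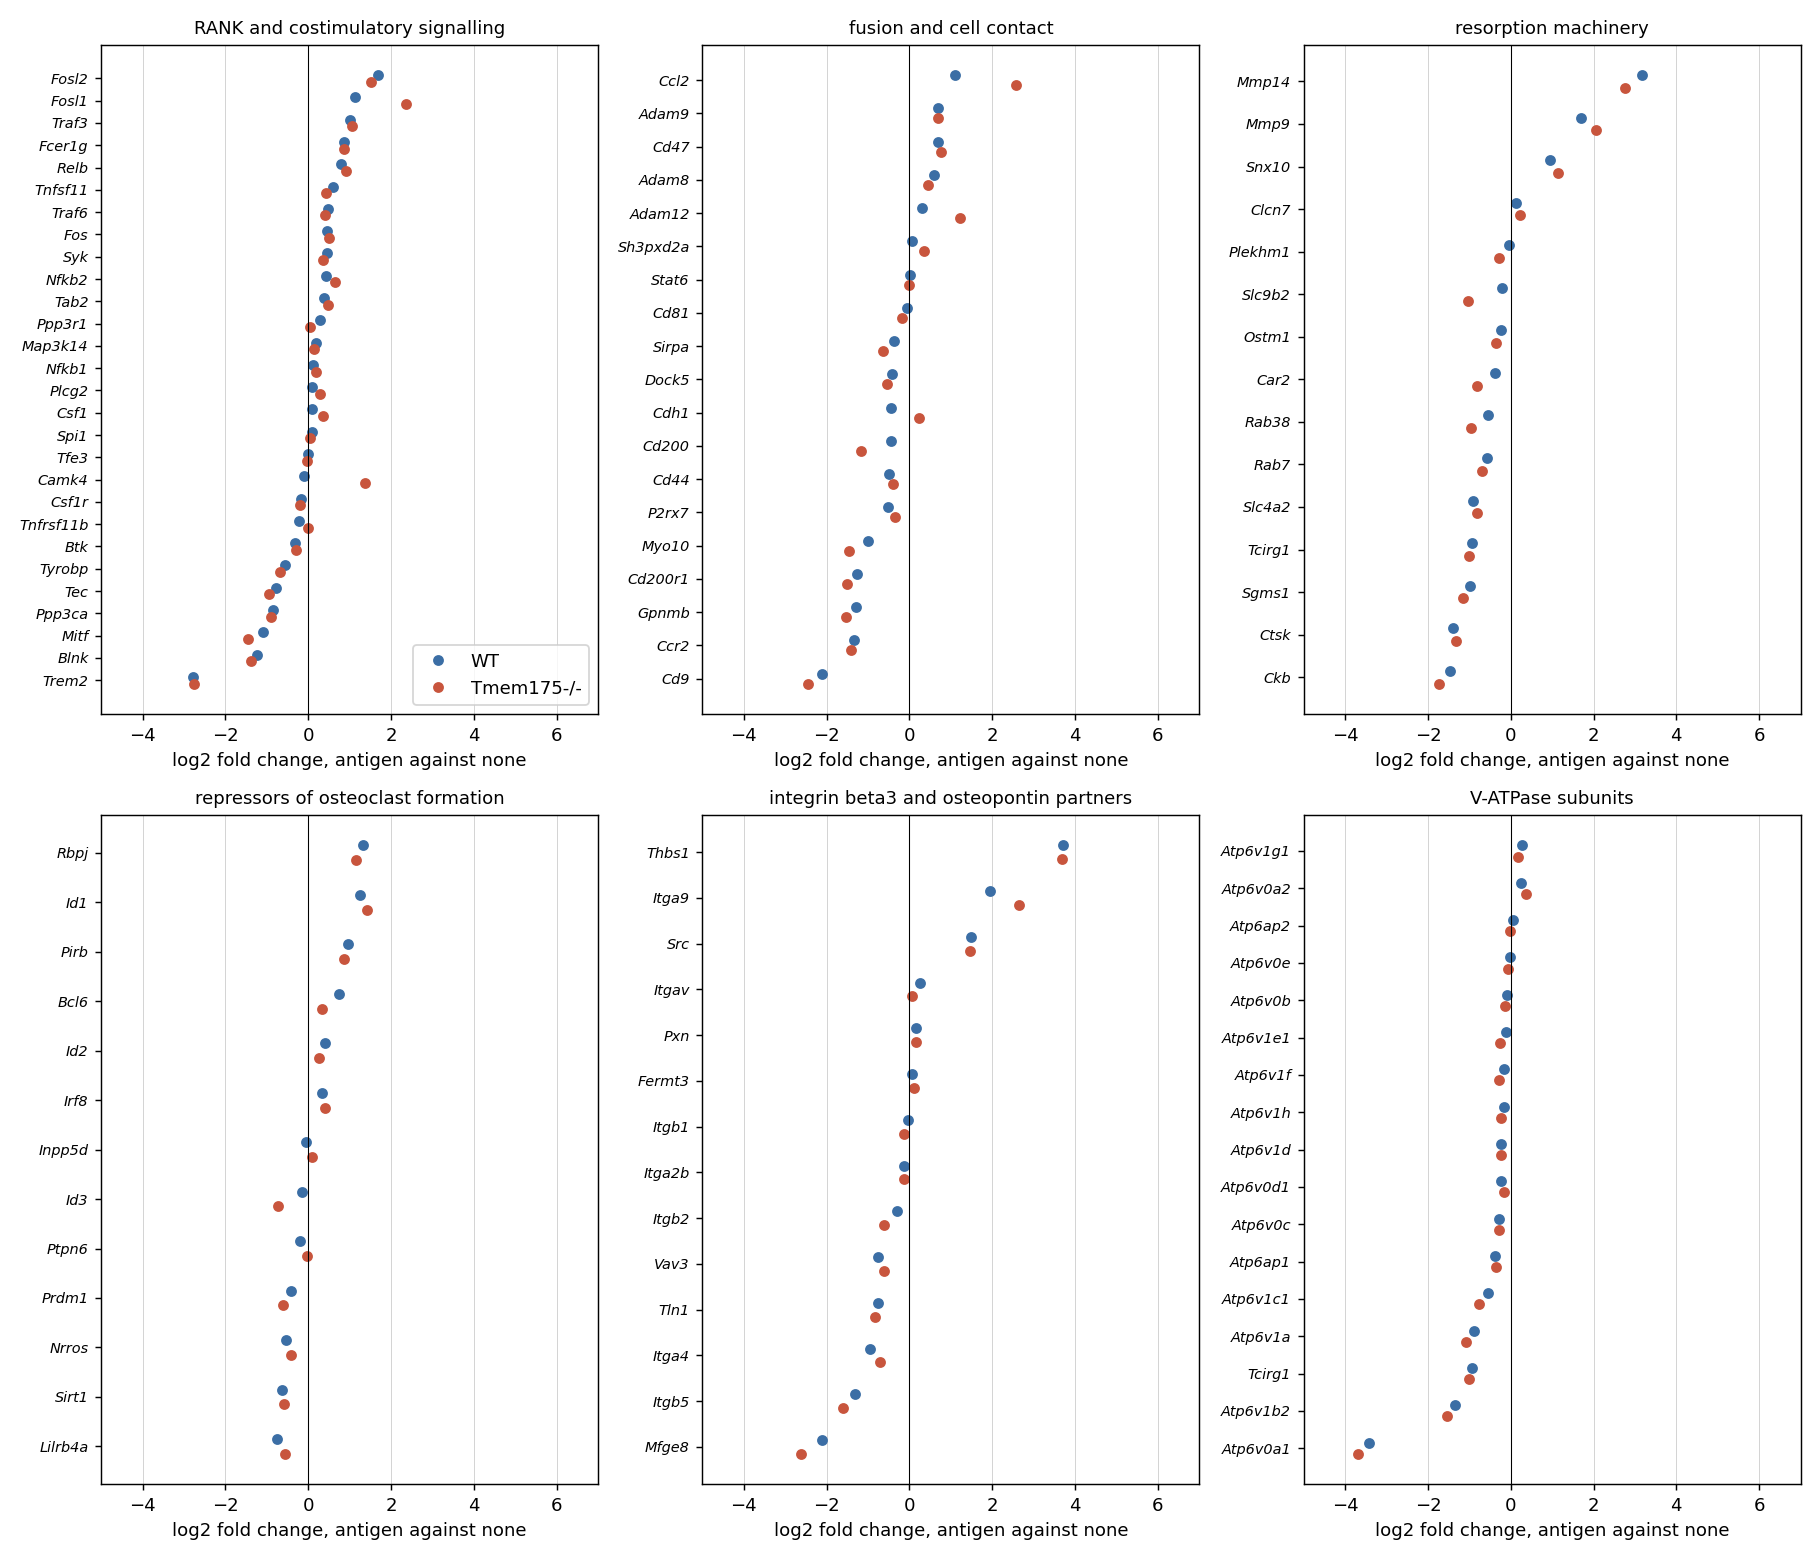
Log2 fold change with antigen of the tested genes reported here from 6 lists around the 10 members, WT in blue and Tmem175-/- in red, sorted by the WT value. Trem2 (-2.78 in WT), Cd9 (-2.11), Mfge8 (-2.12) and Atp6v0a1 (-3.42) are the lowest of their lists, and Mmp14 (3.16) and Thbs1 (3.72) the highest of theirs.

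Between genotypes most of the tested members were not called in any 1 condition, while some were higher in knockout cultures and 1 was lower. Without antigen 3 of the 9 tested genes were higher and 1 was lower (background 16.9% called, 9.62% higher and 7.25% lower). With antigen, with antigen and IL-1β and with antigen and IL-18 the same 3 genes, Acp5, Tm4sf19 and Atp6v0d2, were higher each time and the other 6 were not called (background 15.3%, 13.8% and 20.2% called, of which 7.7%, 7.22% and 9.89% were higher and 7.62%, 6.55% and 10.3% lower). Without the 4 knockout libraries numbered 2 the counts of called members were 5, 3, 3 and 4. In these fits 2877, 2271, 1771 and 3010 of 14289 tested genes were called, against 2379, 2160, 1941 and 2851 of 14099 in the reported fit.

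Acp5 was 2.55-fold higher in KO_none than in WT_none (1.35 ± 0.0837 on the log2 scale, adjusted p 2.62e-10). In KO_Ag against WT_Ag it was 0.41 ± 0.07 (adjusted p 0.000305), and with the cytokines added it was 0.44 each time. The cytokine groups held 215, 199 and 203 CPM in WT_Ag_IL1b against 286, 269 and 280 in KO_Ag_IL1b, and 212, 212 and 210 in WT_Ag_IL18 against 297, 275 and 286 in KO_Ag_IL18. Every knockout library was above every WT library of its condition. Tm4sf19 was higher by 0.45 ± 0.0818 without antigen, 0.74 ± 0.11 with antigen, 0.67 ± 0.111 with IL-1β and 1.01 ± 0.115 with IL-18 (adjusted p 0.000179, 1.46e-05, 7.58e-05 and 1.58e-07). Its cytokine groups stood at 6.17, 5.99 and 5.87 CPM in WT_Ag_IL1b against 10.3, 9.53 and 8.86 in KO_Ag_IL1b, and at 4.46, 4.88 and 5.36 in WT_Ag_IL18 against 9.13, 11.4 and 9.35 in KO_Ag_IL18, again without overlap. These genotype calls of Acp5 and Tm4sf19 held under every alternative run.

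Atp6v0d2 was higher in knockout cultures by 0.48 ± 0.146 without antigen (adjusted p 0.0311), 0.63 ± 0.158 with antigen (0.0106), 0.73 ± 0.156 with IL-1β (0.00385) and 0.95 ± 0.159 with IL-18 (0.000405). The groups did not overlap in any condition, the cytokine values being 85.4, 102 and 87 CPM in WT_Ag_IL1b against 135, 167 and 154 in KO_Ag_IL1b, and 62.9, 73.1 and 63.7 in WT_Ag_IL18 against 106, 150 and 131 in KO_Ag_IL18. The call without antigen was lost without KO_none replicate 1 (adjusted p 0.091) or 3 (0.104) and without WT_none replicate 1 (0.0786), 2 (0.074) or 3 (0.0868). The call with antigen was lost without KO_Ag replicate 2 (0.0596) or WT_Ag replicate 1 (0.0525) and when only those 2 groups were fitted (0.177). With the cytokines both calls were kept. The share of d2 in d1 plus d2 RNA was 28.4% ± 1.83 in WT_Ag_IL1b and 38.4% ± 2.21 in KO_Ag_IL1b, and 22.4% ± 1.53 and 34.6% ± 4.01 in the IL-18 groups.

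Dcstamp went the other way. It was 1.48-fold lower in KO_none than in WT_none (log2 fold change -0.56 ± 0.0837, adjusted p 1.18e-05), with no overlap between the groups. In the 18 antigen libraries Dcstamp had at most 11 counts each. Its differences of -0.89 ± 0.487 with antigen alone, -0.52 ± 0.485 with IL-1β and -0.71 ± 0.494 with IL-18 were not called (adjusted p 0.25, 0.567 and 0.341). For Spp1 the difference of 0.40 ± 0.166 between KO_none and WT_none was not called (adjusted p 0.119). It was called when only those groups were fitted (adjusted p 0.023), with a replicate block (0.038) and without the 4 knockout libraries numbered 2 (0.49, adjusted p 0.0113). With antigen the Spp1 difference was -0.02 ± 0.174, and with IL-1β it was 0.42 ± 0.173 (adjusted p 0.135; 0.57, adjusted p 0.0482, without KO_Ag_IL1b replicate 1).

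Tnfrsf11a, Nfatc1, Ocstamp and Itgb3 were not called between genotypes in any condition. Their differences without antigen were 0.12 ± 0.0522, -0.09 ± 0.0466, 0.13 ± 0.229 and -0.08 ± 0.228. That of Tnfrsf11a was called without the filter on low counts (adjusted p 0.0398). With IL-18 the difference of Tnfrsf11a was -0.12 ± 0.0544 (adjusted p 0.136). With IL-1β that of Ocstamp was 2.06 ± 0.924 (adjusted p 0.154), on at most 4 counts per library. In Itgb3 the knockout library numbered 2 was the lowest of its group in KO_none, KO_Ag_IL1b and KO_Ag_IL18, at 59.2, 39.4 and 45.5 CPM against 65.7 to 91.8 in the other libraries of these groups. Without the 4 knockout libraries numbered 2 Itgb3 was called higher with IL-18 (0.51, adjusted p 0.043).

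Other genes of the pathway were called between genotypes as well, more of them without antigen than with it. Of the 15 tested resorption genes 8 were higher in KO_none and the other 7 were not called, and of the 17 V-ATPase genes 9 were higher and the other 8 were not called (medians 0.11 and 0.14, against 0.01 for all tested genes, of which 9.62% were higher and 7.25% lower). With antigen 4 resorption genes were higher and 1 was lower, and 2 V-ATPase genes were higher and 0 lower (7.7% of all tested genes higher and 7.62% lower). With IL-1β 5 and 3 genes of these lists were higher, and with IL-18 6 and 7, with 0 lower. Ctsk was higher by 0.74 ± 0.162 without antigen (adjusted p 0.00353, and 0.134 when only those groups were fitted) and by 0.83 ± 0.197 with it (0.00759). Tcirg1 was higher by 0.18 ± 0.0416 without antigen (0.00278), and its difference with antigen of 0.10 ± 0.0423 was not called (0.111). That difference was called with a replicate block (0.0425) and without KO_Ag replicate 1 (0.00703) or WT_Ag replicate 2 (0.0301). Of the 28 signalling genes 4 were higher and 9 were lower without antigen, and 0 were higher and 6 lower with it. Csf1, the gene of the macrophage growth factor M-CSF, was lower (log2 fold change -1.22 ± 0.16, adjusted p 1.97e-05), at 10.5 ± 0.401 CPM against 24.4 ± 3, and Tnfrsf11b, the gene of the RANKL decoy osteoprotegerin, stood at 0.219 ± 0.155 against 1.15 ± 0.493 CPM (log2 fold change -2.30 ± 0.46, adjusted p 0.000577). Of the 19 fusion genes 7 were higher and 4 were lower without antigen, and 2 were higher and 6 lower with it. Without antigen these included Cd9 at 0.39 ± 0.086 and its relative Cd81, which also restrains fusion, at -0.78 ± 0.0873 (adjusted p 0.00315 and 1.08e-07).

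Markers of several cell types differed between genotypes beside these genes and the members. Of 8 fibroblast and stromal markers, cells that also express Csf1 and Tnfrsf11b, 4 were lower without antigen and 6 in each antigen condition, with 0 higher. Their sum was 15.8 to 33.9 CPM in KO_none (Lum at 0) against 32.5 to 115 in WT_none, 48.1 to 57.5 against 143 to 222 with antigen, 20.4 to 63.3 against 108 to 178 with IL-1β, and 30.6 to 73.9 against 166 to 182 with IL-18. Of 7 neutrophil markers 1 was lower without antigen, and 2, 6 and 5 were higher with antigen, with IL-1β and with IL-18. Their sum with IL-1β was 482 to 627 CPM in knockout against 359 to 408 in WT cultures, and with IL-18 it was 511 to 636 against 349 to 378. The sum of the megakaryocyte and platelet markers was 573 to 619 CPM against 417 to 453 with IL-1β, where 0 of 6 tested were called, and 537 to 555 against 294 to 351 with IL-18, where 3 were higher. Of 4 tested dendritic cell markers 2 were lower without antigen, 1 with antigen, 2 with IL-1β and 3 with IL-18, with 0 higher. The sum of the dendritic cell list was 2.7 to 7.56 CPM in KO_none against 5.41 to 5.82 in WT_none, and 5.91 to 7.21 against 9.47 to 12 with antigen. Of 5 tested B cell markers 3 were lower without antigen and 2 with it. With IL-1β 1 was higher and 1 lower, and with IL-18 2 were higher. Of 7 macrophage markers 2 were higher and 2 lower without antigen, and 1 higher and 1 lower with it. In the IL-1β groups 1 was higher and 1 lower, and in the IL-18 groups 2 were higher and 1 lower. Of 8 T cell markers 1 was lower without antigen and 1 with it, and 1 was higher with IL-1β. The T cell sum was 110 to 119 CPM in KO_none against 139 to 160 in WT_none. The part of these cells in the higher Acp5, Tm4sf19 and Atp6v0d2 and in the other differences was not tested.

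No member passed the test for either cytokine on top of antigen. By edgeR's quasi-likelihood test 0 of 9 genes were called for IL-1β or IL-18 in either genotype (background 0.0567% and 0.0426% of genes for IL-1β in WT and knockout, 0% and 0.213% for IL-18), and DESeq2's Wald test also called 0 in each. By direction, IL-1β in WT gave 0.0284% higher and 0.0284% lower, IL-1β in knockout 0.0426% higher and 0% lower, and IL-18 in knockout 0.0496% higher and 0.163% lower. An unadjusted p under 0.05 was reached by 1 gene for IL-1β in knockout, Atp6v0d2 at 0.37 ± 0.154 (adjusted p 0.32), and by 1 gene for IL-18 in WT, Tm4sf19 at -0.31 ± 0.125 (adjusted p 1). In WT cultures Tm4sf19 stood at 4.46, 4.88 and 5.36 CPM with IL-18 and at 5.82, 6.2 and 6.26 with antigen alone. The differences of the cytokine responses between genotypes gave 0 called members as well, with 0% of all genes called and 0 members at an unadjusted p under 0.05. The WT_Ag and KO_Ag libraries serve as controls of both cytokines.

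Antigen separated the libraries in most members, and correlations across libraries are given only as a description. By Pearson r of log2 CPM over 24 libraries the genes most like Atp6v0d2 were Trem2, Emp1 and Rasa3 (0.998 each), those most like Spp1 were Lpl (0.998), Pdxk and Lipa (0.997 each), and those most like Dcstamp were Qpct (0.992), Gas6 and Gna12 (0.990 each). Acp5 was most like Pcbp2, Slpi (0.994 each) and Plpp3 (0.992). Those of Tm4sf19 were Gm20056 (0.988), Il7r and Cd68 (0.984 each), of Tnfrsf11a Lcp1 (0.974), Sms (0.973) and Clip1 (0.971), of Nfatc1 Mki67 (0.938), Zfp84 (0.933) and Cstf2t (0.924), and of Itgb3 Prkca (0.920), Angpt1 (0.904) and Itga2 (0.886). These points share groups, antigen status and library depth.

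Within groups, where the condition but not the replicate number is held fixed, Atp6v0d2 and Spp1 moved together. Their deviations of log2 CPM from the group mean had r = 0.91 over 24 libraries. Over the 20 libraries left without the knockout libraries numbered 2, r was 0.86. This pair was picked as the highest of all pairs of tested members, the others running from -0.54 to 0.46 over 24 libraries. In KO_none replicate 2 held the lowest of the 3 values of each gene, at 1577 and 2024 CPM, and in KO_Ag, KO_Ag_IL1b and KO_Ag_IL18 it held the highest, at 144, 167 and 150 CPM of Atp6v0d2 and 191, 230 and 198 of Spp1. Acp5 and Spp1 deviations had r = 0.10.

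**Figure D4:**
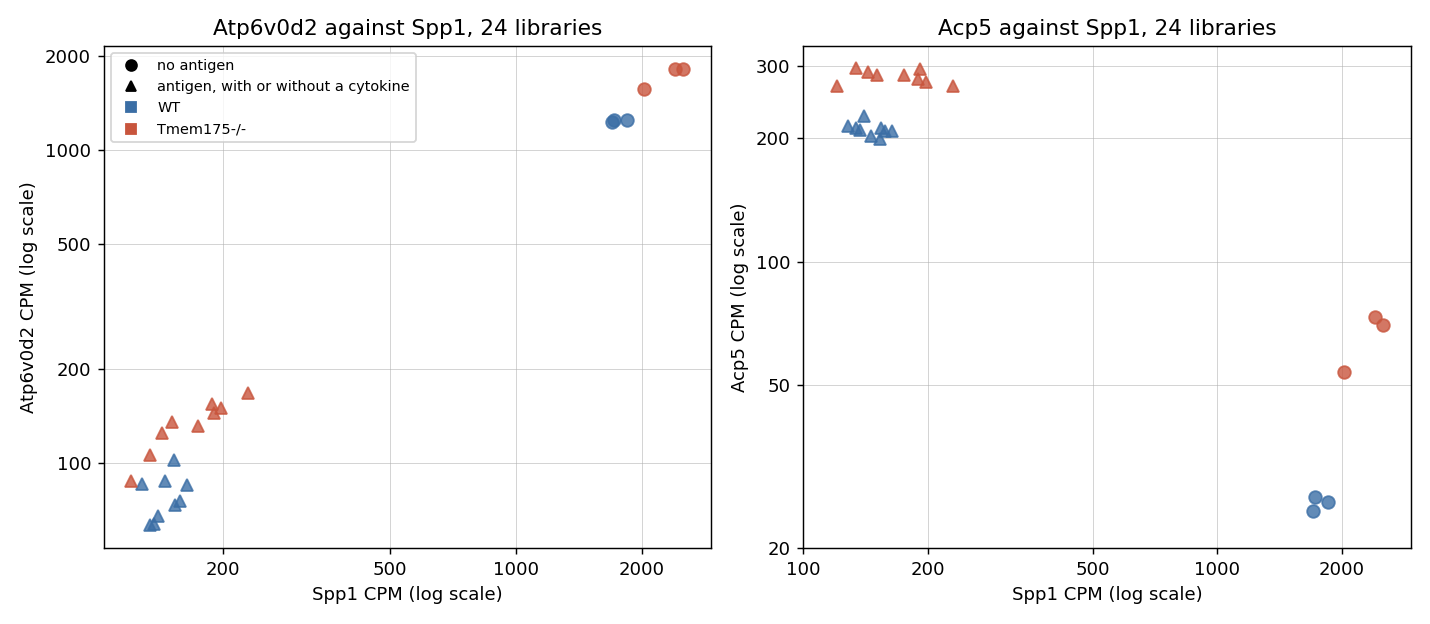
Atp6v0d2 (left) and Acp5 (right) against Spp1 in the 24 libraries, CPM on log axes, circles without and triangles with antigen, WT blue and Tmem175-/- red. Atp6v0d2 and Spp1 are high together without antigen, at 1234 CPM or more and 1697 CPM or more, whereas Acp5 is at most 73.5 CPM there and at least 199 CPM in every antigen library.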

How the data were processed

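The authors deposited raw counts per Ensembl gene for 24 libraries, 1 column each. Per the submitters' processing notes, reads were trimmed with fastp (version not stated) and the genome build was GRCm39; the aligner, the counter, its strand setting and the annotation are not given in the sources used here, so overlapping and antisense genes cannot be told apart. The deposited counts were used unscaled. Groups came from the titles. Symbols were matched by Ensembl identifier; 346 of 55487 identifiers had none (0.0228% of counts). Transcript length was that of the longest GENCODE vM21 transcript. Promoter windows came from RefSeq on GRCm38.p6 and hold only bases before the start.

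Genes were filtered with filterByExpr, scaled with TMM factors and fitted with edgeR 4.0.16 in R 4.3.3 (robust quasi-likelihood, 1 coefficient per group, 16 residual degrees of freedom, common biological coefficient of variation 5.01%). The 13 comparisons were genotype in 4 conditions, antigen in 2 genotypes, each cytokine in 2 genotypes, and 3 differences of responses. Calls needed an adjusted p under 0.05 over all 14099 genes. The fit was tested on simulated data. The members and the lists (6 of pathway genes, 9 of markers) were chosen with earlier results of these data known. Named genes were the 10 members, fixed genes of the lists, and up to 4 called genes per list and comparison with the largest change and a mean of at least 1 log2 CPM; from these, the text names some, a choice made after values were seen. A gene of the lists is counted but not reported here by name. Likeness used the 3 genes with the highest r. Intervals at 95% for ratios of counts are exact (binomial, conditional on the total) and cover counting error only.

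Other settings tried were a fit of only the groups compared, the replicate number as a block, all genes kept whatever their counts, size factors by median of ratios, the Wald test of DESeq2 1.42.0, and single libraries left out. Leaving out the 4 knockout libraries numbered 2 was added after the data were seen. No library was left out of the reported values.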

Additional observations from a re-analysis of the deposited data

Results flagged for a closer look

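The antigen response differed between Tmem175-/- and WT cultures by a test of the difference itself (edgeR's quasi-likelihood interaction contrast, adjusted over all 14099 genes) for 1 member and for 7 genes of the lists that kept this call under every alternative, a selection made after the values were seen. Values are the knockout response minus the WT response on the log2 scale. Acp5 rose less in knockout cultures, by -0.94 (adjusted p 1.13e-05). Mitf fell further, by -0.39 (adjusted p 0.000204), as did Myo10, an unconventional myosin of filopodia, by -0.47 (2.28e-05) and Cd200, a ligand of an inhibitory myeloid receptor, by -0.73 (5.47e-05). Ccl2 rose more, by 1.49 (0.00441). Mmp14 and Bcl6 rose less, by -0.39 (8.59e-05) and -0.41 (0.00529), and Ppp3r1, a calcineurin subunit, by -0.25 (0.00299), its knockout response alone being 0.04 (not called).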

How the results depend on the processing

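Of 117 member differences 31 were called, 28 of them under every alternative that gave a value, 3 were lost in at least 1, and 7 others were called in at least 1; 0 reversed. The number of called members for the difference of antigen responses moved from 1 to 2 without the 4 knockout libraries numbered 2, and ranged from 1 to 2 when libraries were left out singly (2 without KO_none replicate 1); the cause was not tested. Leaving out single libraries gave 8 to 9 called members for antigen in each genotype and 0 to 0 for the cytokines. For knockout against WT it gave 3 to 4 without antigen, 2 to 3 with antigen, 3 to 4 with IL-1β and 3 to 3 with IL-18. Over all genes these fits called 9189 to 9271 for antigen in WT and 9141 to 9414 in knockout cultures. For knockout against WT they called 1651 to 2624 without antigen, 1642 to 1939 with antigen, 1321 to 1724 with IL-1β and 1867 to 2562 with IL-18. Same-numbered libraries deviated together weakly, with r 0.00 to 0.23, above 0.1 in 13 of 30 pairs and in every pair of 0 of 10 comparisons. Each library of the first group was also set against the 3 libraries of the second group in each of the 10 comparisons. In 22 of these 30 cases, which count some libraries more than once, the highest r was with the same number. The labels do not say what the number stands for, and the reported fit leaves it out. The replicate block gave 5 called members for KO_none against WT_none in place of 4 and 9 for antigen in WT in place of 8. Over all genes it called 2876 in place of 2379 and 9826 in place of 9591 in these comparisons.

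Counts over all genes moved by more than 1.5 times in few comparisons with many calls: 1903 in place of 1183 for the difference of antigen responses without the 4 knockout libraries numbered 2, and 1867 in place of 2851 for knockout against WT with IL-18 without WT_Ag_IL18 replicate 3. The cytokine counts were unstable, from 0 to 448 genes for IL-18 in knockout (30 in the reported fit), 1 to 422 for IL-1β in knockout (6), 2 to 102 for IL-1β in WT (8), 0 to 2 for IL-18 in WT (0), 0 to 17 for the difference of IL-18 responses (0) and 0 to 1 for that of IL-1β responses (0); no member was among them in any of these. With antigen Dcstamp and Ocstamp rest on at most 11 and 6 counts per library, which limits the precision of their differences between genotypes.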
